A study of Mus musculus with 6 samples.

Results

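The cell cycle genes of neuromesodermal progenitors (NMPs) are described here: the A, B, D and E cyclins, the cyclin-dependent kinases (CDKs) and their inhibitors, the E2F transcription factors, the Cdc25 phosphatases, the Aurora, Polo-like and Bub1 kinases, and the mitotic activator Cdc20. They were chosen by gene symbol alone, and 57 of the 20631 genes in the tables, with 85 of 30352 transcripts, have such a symbol. NMPs are caudal progenitors of spinal cord and presomitic mesoderm. They were derived from mouse ESCs (strain given as 129 R1 in the labels and as C57BL/6 in the methods) by 2 days in bFGF and 1 day in bFGF with the WNT agonist CHIR99021, and all 6 samples share this history. Per the methods, bFGF and CHIR99021 were then removed from all 6 samples. The cells were kept for 2 h in retinoid-free N2B27 medium with the vehicle DMSO, 25 nM retinoic acid (RA) or 1 µM RA, 2 dishes per condition. The levels in DMSO are thus those of cells 2 h after this removal. Total RNA depleted of ribosomal RNA was sequenced. The methods call the duplicates technical replicates, so p-values measure only the spread between dishes. The derived cells are a culture model and not embryonic NMPs, and fewer cells of a type cannot be told apart from less RNA per cell in such bulk samples.

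Cyclins bind and switch on CDKs. D cyclins with Cdk4 or Cdk6 and E cyclins with Cdk2 phosphorylate the retinoblastoma family of pocket proteins and free the E2Fs, which drive the genes of DNA replication. A and B cyclins with Cdk1 then drive mitosis together with the Aurora and Polo-like kinases, Cdc25 phosphatases remove the inhibitory phosphates from CDKs, and Cdc20 directs the anaphase-promoting complex to cyclin B. The Cip/Kip and INK4 proteins hold CDKs in check. RA is known for slowing division and promoting differentiation in many cultured progenitors over days, and stem cell cycles are known for a short G1 phase.

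Summed estimated counts were between 31753556 and 42029348 per sample, and levels are given as RPKM, in which reads are scaled to transcript length and to the reads of the sample, summed over the transcripts of a gene. RA exposure was checked first with genes that RA is known to induce. RPKM of Rarb, an RA receptor, was 0.260 and 0.215 in DMSO, 5.59 and 4.97 under 25 nM RA and 6.65 and 6.89 under 1 µM RA. All 7 NMP and caudal epiblast markers were above 1 RPKM in every sample, T among them at 367 to 380 RPKM. Of the markers of other cells, 4 of 4 for presomitic mesoderm, 4 of 4 for definitive endoderm, 2 of 6 for ESCs, 1 of 6 for feeder fibroblasts and 1 of 4 for committed neural cells reached 1 RPKM in all samples, and none was at 0 in all samples. The summed RPKM of the presomitic mesoderm markers was 55.2 to 56.2 in DMSO, 43.6 to 46.6 under 25 nM RA and 39.0 to 41.0 under 1 µM RA. Endoderm markers summed to 50.3 to 51.6, 39.4 to 40.6 and 37.2 to 39.9 RPKM, and ESC markers to 24.6 to 27.5, 25.8 to 27.9 and 26.5 to 28.2 RPKM, in the same order. Feeder markers summed to 4.17 to 4.55, 4.05 to 4.06 and 3.41 to 3.62 RPKM, and neural markers, whose early members Sox1, Pax6 and Neurog2 stayed below 1 RPKM, to 11.9, 11.2 to 11.9 and 10.2 to 10.6 RPKM. The NMP markers summed to 487 to 499, 532 to 544 and 520 to 539 RPKM. The presomitic mesoderm, endoderm and feeder sums were thus lower and the NMP sum higher in all RA samples. The neural sum was lower under 1 µM RA and overlapped at 25 nM, and the ESC sums overlapped. Members of a list did not move together. Nkx1-2 was at 39.3 and 38.9 RPKM in DMSO and 74.8 to 81.2 with RA, and Sox2 at 5.21 and 5.20 against 15.25 to 17.25. The paper reports both as activated by RA. Fgf8 was lower with RA, at 59.4 and 57.3 RPKM in DMSO. It was at 51.6 and 49.9 RPKM under 25 nM RA and 51.25 and 46.7 RPKM under 1 µM RA. The paper lists Fgf8 as significantly repressed at the lower dose only. Wnt3a was higher with RA, and T and Fgf17 overlapped at both doses. So did Dll1 of the mesoderm list. Cdx2, and Cxcr4 of the endoderm list, overlapped at 1 µM RA. The part of these markers in the results below was not tested.

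In DMSO the cell cycle genes were high compared with other genes. Their median was 13.8 RPKM against 5.03 RPKM over all 15143 genes tested. The range was wide: 4 genes were at 100 RPKM or above, 28 at 10 to 100, 19 at 1 to 10 and 6 below 1 RPKM. Cdk4, the partner of D cyclins in G1, was the highest at 337 and 350 RPKM in the DMSO samples, rank 162 among tested genes. It was 70.0 times as high as Cdk6, which shares its partners, 11.2 times as high as Cdk2 and 5.54 times as high as Cdk1 by the mean RPKM in DMSO. Ccnb1, the main mitotic cyclin, followed at 178 and 175 RPKM, then Cdc20 at 145 and 152 RPKM and Ccna2, the cyclin of S phase and G2, at 104 and 101 RPKM. None of these 4 genes overlapped with its neighbour in this order.

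In each family a single member led. Ccnd1 was at 66.9 and 64.3 RPKM in DMSO, 2.03 times as high as Ccnd3 and 4.27 times as high as Ccnd2. Ccne1 was at 63.4 and 61.5 RPKM, 4.31 times as high as Ccne2, and Ccnb1 exceeded Ccnb2 by a factor of 3.11. Among the E2Fs the repressor-type E2f4 was the highest, at 45.3 and 42.0 RPKM, 8.84 times as high as the activator E2f1. Next to it was E2f5 at 26.9 and 25.45 RPKM. Among the phosphatases Cdc25a, which acts at the start of S phase, was at 27.0 and 26.6 RPKM, 6.86 times as high as Cdc25b. Cdc25c lay between them at 16.6 and 15.5 RPKM. Cdk8, a kinase of the Mediator complex, led the CDKs outside the core cycle at 26.9 and 25.9 RPKM, with Cdk16 close at 23.25 and 23.9. In the Polo-like family Plk1, a kinase of mitotic entry and the spindle, led at 49.4 and 48.1 RPKM. It was 12.2 times as high as Plk3, and Plk4 came next at 24.7 and 24.1 RPKM.

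Of the CDK inhibitors, Cdkn1b, which encodes p27, was the highest at 18.2 and 17.8 RPKM in DMSO. Cdkn1a, which encodes p21, was at 10.5 and 11.7 RPKM. Cdkn3, a CDK phosphatase grouped here with the INK4 genes, was at 8.01 and 8.04 RPKM. Cdkn2d (p19 INK4d) lay just below it at 7.94 and 7.501 RPKM. Cdkn2a, Cdkn2b and Cdkn2c were between 0.848 and 2.56 RPKM. Ccna1, Ccnb3 and Cdk15, the first of them known as a germ cell cyclin, had at most 7 estimated counts in any sample and were not tested, which leaves 54 genes. Cdk15 was at 0 counts in 3 samples, where a count of 0 allows 0.0394 to 0.0468 RPKM (3 counts, counting error only).

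**Figure D1:**
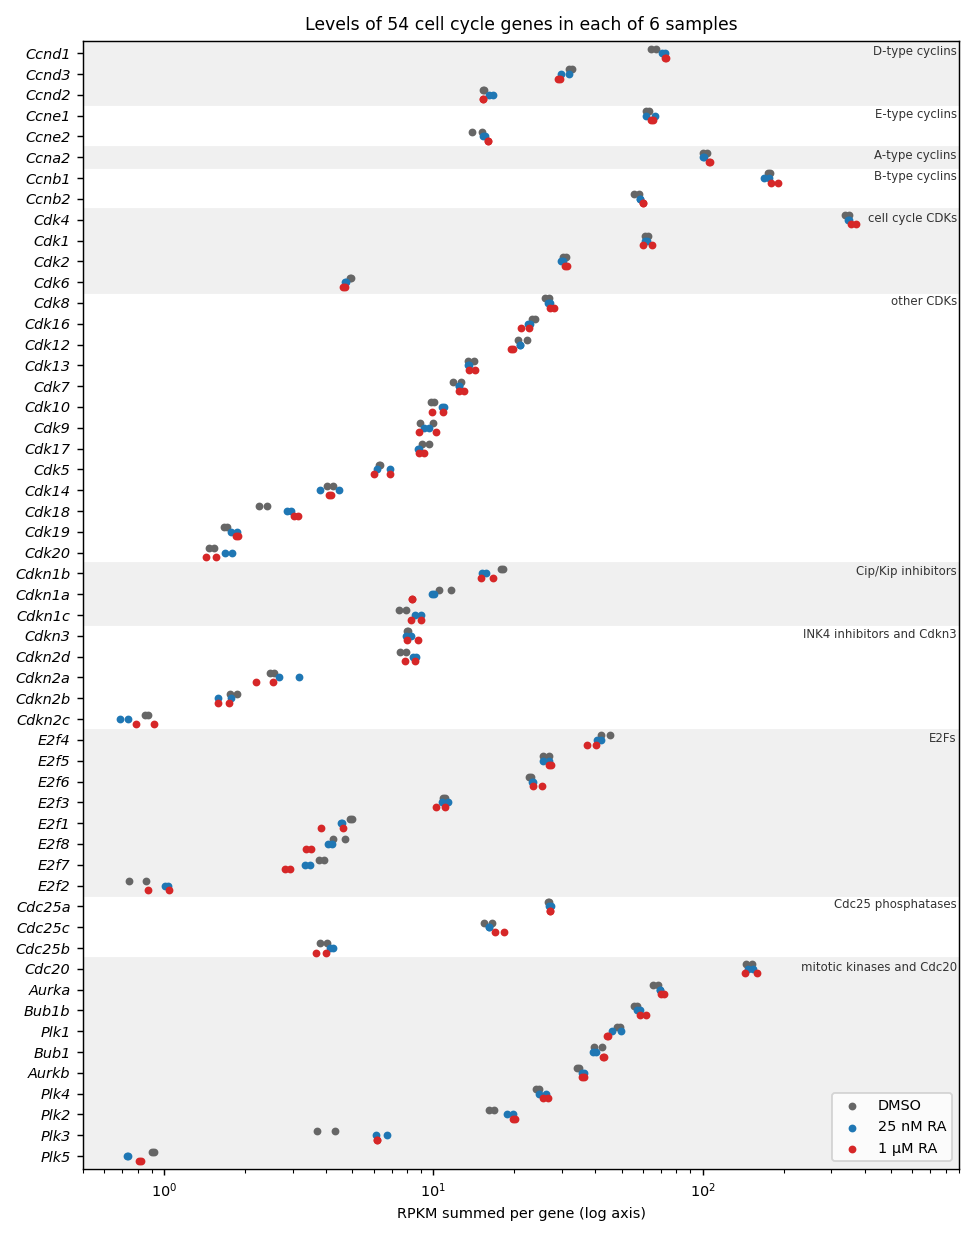
RPKM of the 54 tested cell cycle genes in each of 6 samples on a log axis, grouped by role, with 1 point per sample (grey DMSO, blue 25 nM RA, red 1 µM RA; 2 samples each). Points of a gene lie close together for most genes, while levels between genes span from below 1 RPKM to 372 RPKM for Cdk4; Plk3, Cdk18 and E2f7 show DMSO samples set apart from RA samples.

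The duplicates lay close to each other, which sets the size of change that could be seen. The median absolute log2 ratio between the RPKM of duplicates was 0.0550 in DMSO, 0.0402 under 25 nM RA and 0.0616 under 1 µM RA over the 54 genes, and the largest was 0.268, for E2f1 under 1 µM RA. The median standard error of a fitted log2 difference was 0.0556 at 25 nM RA. Differences are log2 differences of edgeR's fit to estimated counts, positive when the condition named first is higher, and calls were made below an adjusted p of 0.1 in edgeR's likelihood ratio test, adjusted after Benjamini and Hochberg over all 15143 genes. Adjusted p given below are from this test on all 6 samples unless another test or fit is named. For single transcripts the same test was run on a separate fit, adjusted over 22074 transcripts.

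A minority of the cell cycle genes changed after 2 h. At 25 nM RA, 6 of 54 genes were called (11.1%), against 8.05% of all genes tested: Plk3, Plk2, Cdk18 and E2f2 rose (4.50% of all genes did), and Cdkn1b and E2f7 fell (3.55%). Under 1 µM RA, 13 of 54 were called (24.1%), against 19.7% of all genes tested: Plk3, Plk2, Cdk18 and Ccnd1 rose (8.54% of all genes did), and Cdkn1a, Cdkn1b, E2f1, E2f4, E2f7, E2f8, Ccnd3, Plk1 and Cdk12 fell (11.2%). The quasi-likelihood test of edgeR called 5 of the 54 genes at the lower and 14 at the higher dose (6.91% and 19.2% of all genes), and DESeq2 called 3 and 10 (3.87% and 12% of all genes). Plk3, Plk2, Cdk18, Cdkn1b and E2f7 were called at both doses, which share their DMSO samples. The changes were small. The median absolute log2 difference was 0.0601 for the lower and 0.0799 for the higher dose, where all genes tested had 0.0750 and 0.105, and 45 and 46 of the 54 genes lay within 0.2 of 0. The signed medians were 0.0129 and 0.0227, against -0.000510 and 0.00128 over all genes tested. None passed the thresholds that the study used for its own lists (adjusted p under 0.1 with a log2 difference above 1, or below -0.6, and minimum RPKM), which 0.475% and 0.707% of all genes passed. The RPKM of RA and DMSO samples did not overlap for 30 of the 54 genes at 25 nM (55.6%) and 36 at 1 µM (66.7%), against 44.4% and 54.4% of all genes tested.

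**Figure D2:**
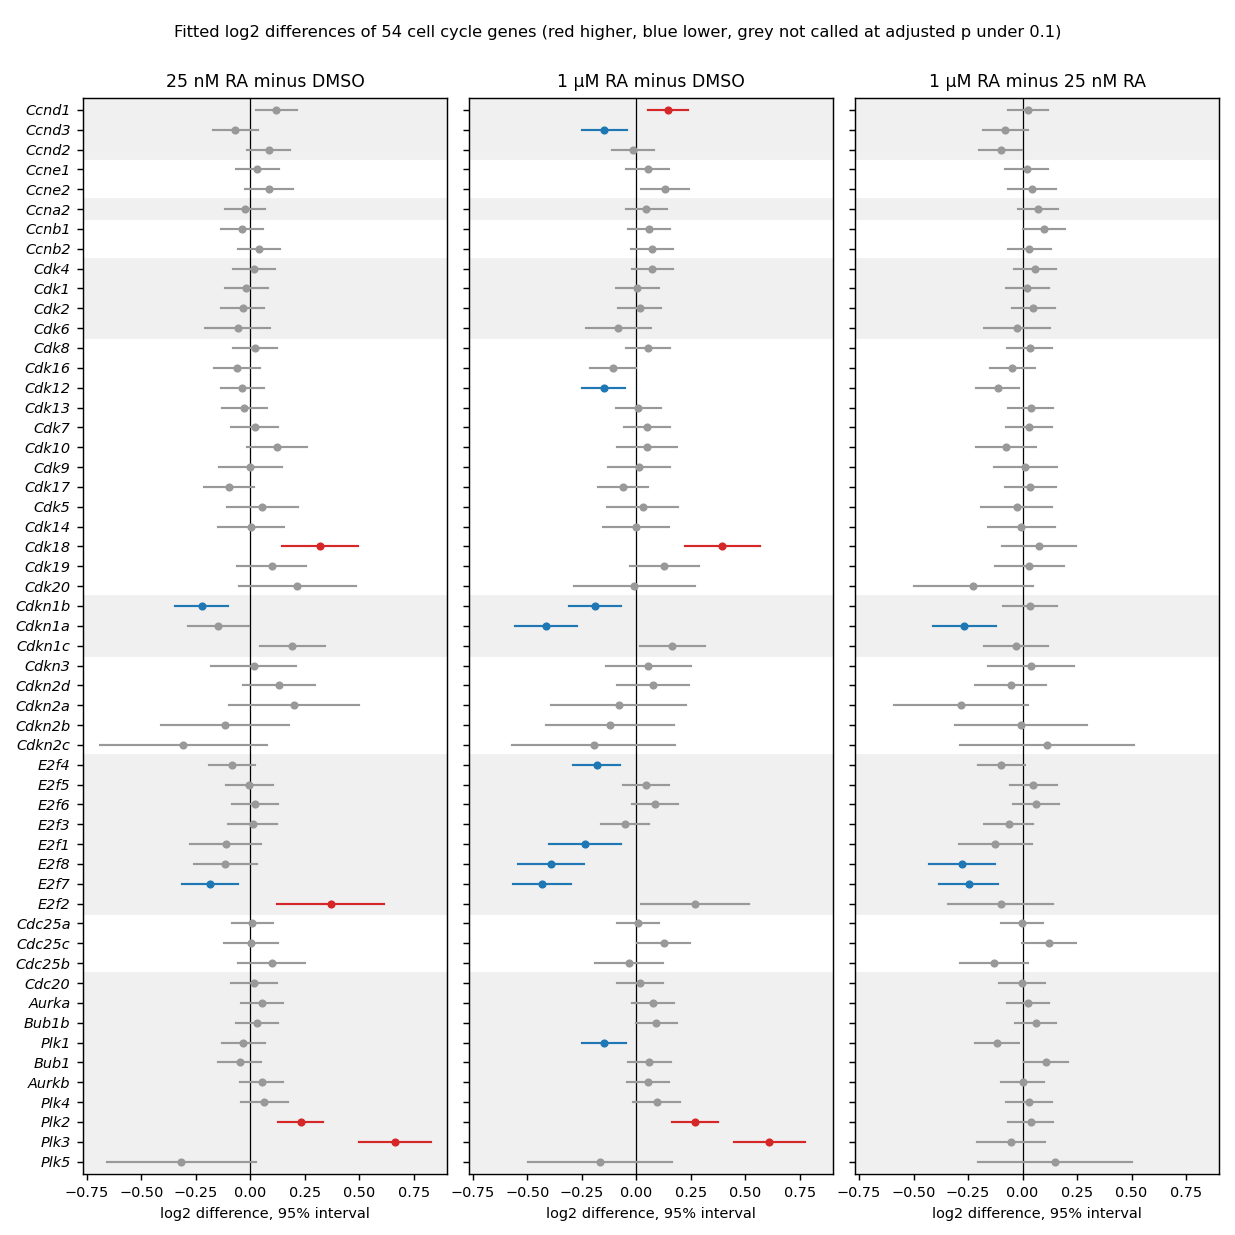
Fitted log2 differences with 95% intervals for the 54 tested genes in 3 panels (25 nM RA minus DMSO, 1 µM RA minus DMSO, 1 µM RA minus 25 nM RA), red for called higher, blue for called lower and grey for not called at an adjusted p under 0.1. Plk3 stands farthest to the right at both doses (0.66 and 0.61), E2f7, E2f8 and Cdkn1a lie to the left at 1 µM RA (-0.43, -0.39 and -0.41), and most cyclins and CDKs sit near 0.

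The Polo-like kinases Plk3 and Plk2 rose at both doses, and Plk3 had the largest difference of the 54 genes. Plk3 is a stress- and growth factor-responsive kinase that is induced early by many stimuli, and Plk2 is an early response gene with roles in centriole duplication. RPKM of Plk3 was 4.32 and 3.70 in DMSO, 6.70 and 6.13 under 25 nM RA and 6.19 and 6.17 under 1 µM RA. All 4 RA samples were above both DMSO samples. It was 1.58-fold higher at 25 nM RA (log2 difference 0.66 ± 0.08 SE, adjusted p = 1.5e-13) and 1.53-fold higher at 1 µM RA (0.61 ± 0.08, adjusted p = 1.4e-11). Plk2 was at 16.7 and 16.1 RPKM in DMSO, 19.8 and 18.8 under 25 nM RA and 19.7 and 20.1 under 1 µM RA, again without overlap between DMSO and RA. Its log2 difference was 0.23 ± 0.05 at 25 nM (adjusted p = 5.7e-04) and 0.27 ± 0.05 at 1 µM RA (adjusted p = 1.2e-05). For neither gene did 1 µM RA differ from 25 nM RA by the test (log2 differences -0.05 and 0.04, adjusted p = 0.83 and 0.82).

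Promoter sequences of Plk3 and Plk2 are shown because both genes rose at both doses. Each is the 250 bases before the RefSeq start site in GRCm38.p6, written 5′ to 3′ on the strand of the gene (Plk3 at chr4:117133964-117134213, minus strand; Plk2 at chr13:110394794-110395043, plus strand). Capitals mark a match to the hexamer AGGTCA, which RA receptors can bind in pairs, or to a variant of it whose first part reads GGG, AGT or GGT, on either strand.
Plk3: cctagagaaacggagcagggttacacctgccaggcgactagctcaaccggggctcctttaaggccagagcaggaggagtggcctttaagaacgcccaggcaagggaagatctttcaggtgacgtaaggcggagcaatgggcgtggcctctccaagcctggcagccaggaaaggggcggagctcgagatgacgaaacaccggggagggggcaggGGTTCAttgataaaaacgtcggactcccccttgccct
Plk2: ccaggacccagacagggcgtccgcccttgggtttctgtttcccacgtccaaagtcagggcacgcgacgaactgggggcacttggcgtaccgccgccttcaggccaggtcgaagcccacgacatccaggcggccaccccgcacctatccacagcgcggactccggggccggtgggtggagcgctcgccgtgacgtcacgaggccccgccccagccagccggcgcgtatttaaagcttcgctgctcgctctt
The Plk3 window holds 1 such hexamer, GGTTCA, 37 bases before the start, with no second one beside it, and the Plk2 window holds none. Of 32851 RefSeq promoter windows of this length, 38.6% hold at least 1, so a match is common and is a description of letters only.

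The other mitotic genes behaved differently from Plk2 and Plk3. Plk1 was at 49.4 and 48.1 RPKM in DMSO, 49.7 and 46.1 under 25 nM RA and 44.0 and 44.5 under 1 µM RA. Only the 1 µM RA samples lay below both DMSO samples, and Plk1 fell there by 0.15 ± 0.05 on the log2 scale (adjusted p = 0.029), a call lost without either DMSO sample (-0.16 to -0.13 over 6 omissions of a sample). Cdc20 was at 145 and 152 RPKM in DMSO, 155 and 148 under 25 nM RA and 144 and 159 under 1 µM RA, so that its samples overlapped in every comparison. Neither Cdc20 nor the mitotic kinases Aurka, Aurkb, Bub1 and Bub1b passed the test at either dose, with log2 differences between -0.05 and 0.09. The centriole kinase Plk4 had log2 differences of 0.06 and 0.09, and Plk5, below 1 RPKM, of -0.32 and -0.17 with standard errors of 0.17, and neither was called.

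**Figure D3:**
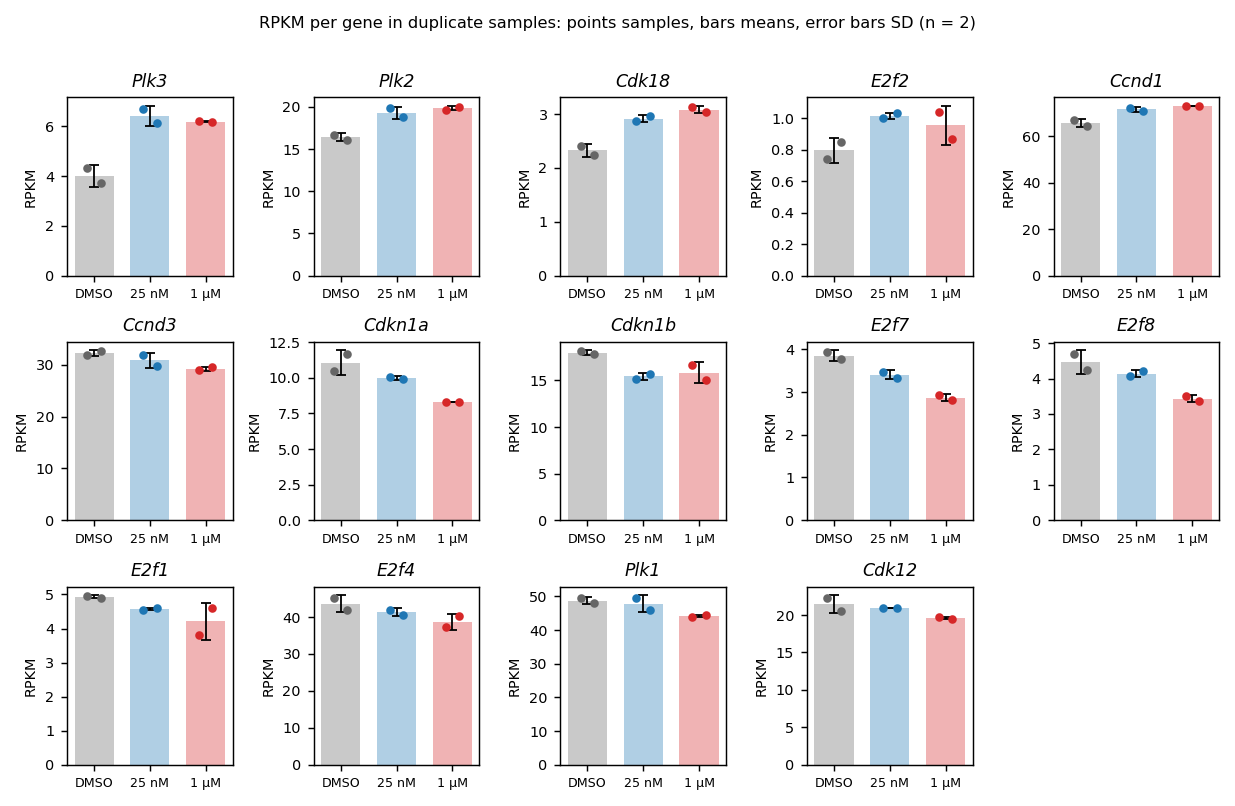
RPKM of the 14 cell cycle genes called in at least 1 comparison, on linear axes from 0; points are samples, bars means and error bars SD of 2 samples for DMSO, 25 nM RA and 1 µM RA. Plk3, Plk2 and Cdk18 step up at 25 nM RA and are not called between the doses, whereas Cdkn1a, E2f7 and E2f8 are lowest under 1 µM RA.

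Of the Cip/Kip inhibitors, which bind cyclin-CDK complexes, p21 and p27 transcripts fell. Cdkn1a was at 10.5 and 11.7 RPKM in DMSO, 10.1 and 9.89 under 25 nM RA and 8.32 and 8.32 under 1 µM RA. The 3 conditions formed 3 separate steps with no overlap. The fall at 1 µM RA was 1.33-fold (log2 difference -0.41 ± 0.07, adjusted p = 3.0e-07), while the difference at 25 nM RA was -0.15 ± 0.07 and did not pass (adjusted p = 0.28). The latter value rested on the DMSO samples, at -0.06 without DMSO replicate 2 and -0.23 without DMSO replicate 1, where it passed (adjusted p = 0.083). Cdkn1b was at 18.2 and 17.8 RPKM in DMSO, 15.1 and 15.7 under 25 nM RA and 16.7 and 15.0 under 1 µM RA. Both doses lay below DMSO and overlapped with each other, with log2 differences of -0.22 ± 0.06 (adjusted p = 0.0073) and -0.19 ± 0.06 (adjusted p = 0.018). The call at 25 nM RA was lost without DMSO replicate 1 or 25 nM RA replicate 1 (-0.26 to -0.19 over 6 omissions of a sample), and that at 1 µM RA without either DMSO sample or 1 µM RA replicate 2 (-0.28 to -0.11) and in DESeq2.

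Cdkn1c, which encodes p57 and is imprinted, pointed the other way without passing the test. It was at 7.44 and 7.92 RPKM in DMSO, 8.53 and 8.995 under 25 nM RA and 8.96 and 8.29 under 1 µM RA, with log2 differences of 0.19 ± 0.08 (adjusted p = 0.12) and 0.17 ± 0.08 (adjusted p = 0.13). The summed RPKM of the 3 Cip/Kip genes spanned 31.6 to 37.4 over the samples, a spread of 18.2% and the widest of the 11 role groups. In the group of the Cdkn2 genes and Cdkn3, none of 5 genes was called at either dose by edgeR's likelihood ratio test. None had an unadjusted p under 0.05 in that test, and none was called by edgeR's quasi-likelihood test or DESeq2. The 95% intervals of the differences at 25 nM RA ran from -0.18 to 0.21 for Cdkn3 and from -0.03 to 0.295 for Cdkn2d, and were wider for the 3 lower genes, with the lowest end at -0.69 for Cdkn2c and the highest at 0.50 for Cdkn2a. Cdkn3 was at 8.01 and 8.04 RPKM in DMSO, 7.94 and 8.29 under 25 nM RA and 8.76 and 8.004 under 1 µM RA.

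The promoter of Cdkn1a is shown because the gene was lower under 1 µM RA than under 25 nM RA or DMSO. The window lies at chr17:29093519-29093768 on the plus strand (GRCm38.p6), before the start of NM_007669, the transcript that held 74.7% of the RPKM of the gene in DMSO. It is written wholly in lower case because none of the motifs searched occurs in it.
Cdkn1a: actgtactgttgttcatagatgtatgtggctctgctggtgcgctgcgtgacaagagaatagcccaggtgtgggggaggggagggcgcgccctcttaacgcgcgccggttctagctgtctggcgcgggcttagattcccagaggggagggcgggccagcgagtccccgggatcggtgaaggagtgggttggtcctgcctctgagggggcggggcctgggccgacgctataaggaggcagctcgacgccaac
The motifs were the RA receptor hexamers above, the E2F octamers TTTGGCGC, TTTCCCGC, TTTGCCGC and TTTCGCGC, the cell cycle homology element TTTGAA, the CCAAT box and the TATA box TATAAA, each on both strands.

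Of the 8 E2Fs, 4 fell at 1 µM RA and none was called higher, while 1 rose and 1 fell at 25 nM RA. Of all genes tested, 11.2% fell at 1 µM RA, and 4.50% rose and 3.55% fell at 25 nM RA. DESeq2 called 3 of the 8 at 1 µM RA and none at 25 nM RA, where 2 had an unadjusted p under 0.05 in the likelihood ratio test. E2f7 and E2f8 are the atypical E2Fs, repressors that bind DNA without a DP partner and restrain E2F target genes. E2f7 was at 3.94 and 3.77 RPKM in DMSO, 3.48 and 3.33 under 25 nM RA and 2.92 and 2.82 under 1 µM RA. These were 3 steps without overlap, with log2 differences of -0.19 ± 0.07 at 25 nM (adjusted p = 0.068) and -0.43 ± 0.07 at 1 µM RA (adjusted p = 4.9e-09). E2f8 was at 4.70 and 4.23 RPKM in DMSO, 4.06 and 4.22 under 25 nM RA and 3.496 and 3.37 under 1 µM RA. The 25 nM RA samples lay just below DMSO and were not called (-0.11 ± 0.07, adjusted p = 0.53; -0.04 without DMSO replicate 1 and -0.18 without DMSO replicate 2), and the 1 µM RA samples were 1.31-fold lower (-0.39 ± 0.08, adjusted p = 7.3e-06). The call of E2f7 at 25 nM RA was lost when any DMSO or 25 nM RA sample was left out (-0.21 to -0.16 over 6 omissions of a sample) and in DESeq2.

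The promoters of E2f7 and E2f8 are shown because both genes fell and because E2F sites are known in genes of this family. The windows lie at chr10:110745189-110745438 on the plus strand and at chr7:48881597-48881846 on the minus strand (GRCm38.p6). Capitals mark matches to the motifs above.
E2f7: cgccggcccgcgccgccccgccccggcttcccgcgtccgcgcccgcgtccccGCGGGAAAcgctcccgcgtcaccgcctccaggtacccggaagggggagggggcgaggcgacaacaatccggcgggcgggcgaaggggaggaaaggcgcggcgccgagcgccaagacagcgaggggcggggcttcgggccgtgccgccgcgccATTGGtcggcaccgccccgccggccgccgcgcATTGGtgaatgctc
E2f8: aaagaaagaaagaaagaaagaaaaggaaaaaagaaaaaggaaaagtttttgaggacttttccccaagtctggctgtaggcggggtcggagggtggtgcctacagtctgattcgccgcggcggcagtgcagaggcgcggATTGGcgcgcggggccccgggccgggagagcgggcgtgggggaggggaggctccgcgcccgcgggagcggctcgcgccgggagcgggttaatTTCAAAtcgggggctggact
In E2f7 the capitals are an E2F octamer, GCGGGAAA on this strand, 198 bases before the start, and CCAAT boxes read as ATTGG at 46 and 14 bases. In E2f8 they are a CCAAT box at 112 bases and a cell cycle homology element, read as TTCAAA, 20 bases before the start. The start used for this E2f8 window is at 48881596, upstream of the 5′ end of the quantified transcript at 48881042. An E2F octamer occurs in 1.86% of all RefSeq promoter windows, the cell cycle homology element in 16.0% and a CCAAT box in 33.8%.

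The activator E2Fs were not uniform. E2f1 was at 4.97 and 4.90 RPKM in DMSO, 4.55 and 4.60 under 25 nM RA and 3.82 and 4.60 under 1 µM RA. The spread of the 1 µM RA duplicates was the widest among the 54 genes, and the fall of 0.24 ± 0.08 on the log2 scale (adjusted p = 0.035) was lost without 1 µM RA replicate 1 or without either DMSO sample (-0.37 to -0.12 over 6 omissions of a sample), and in DESeq2. E2f2 was at 0.742 and 0.853 RPKM in DMSO, 1.00 and 1.03 under 25 nM RA and 1.04 and 0.869 under 1 µM RA, from 162 to 226 estimated counts per sample. It rose at 25 nM RA (0.37 ± 0.13, adjusted p = 0.051), and its difference at 1 µM RA was 0.27 ± 0.13 (adjusted p = 0.15). The call at 25 nM RA was lost without DMSO replicate 1 or without either 25 nM RA sample (0.26 to 0.47 over 6 omissions of a sample), and in the quasi-likelihood test and DESeq2. E2f3, at 10.8 and 11.1 RPKM in DMSO, had log2 differences of 0.01 and -0.05.

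E2f4, which acts with pocket proteins as a repressor, was at 45.3 and 42.0 RPKM in DMSO, 42.0 and 40.6 under 25 nM RA and 37.2 and 40.2 under 1 µM RA. The 1 µM RA samples were below both DMSO samples and E2f4 fell by 0.18 ± 0.05 (adjusted p = 0.0089), a call lost without DMSO replicate 1 or 1 µM RA replicate 1 (-0.23 to -0.13 over 6 omissions of a sample). E2f5, its closest relative, and E2f6, a repressor linked to Polycomb proteins, were not called at either dose, with log2 differences between -0.01 and 0.08. The summed RPKM of the 8 E2Fs was 120.0 and 115 in DMSO, 117 and 113 under 25 nM RA and 110 and 115 under 1 µM RA, so that the sum overlapped between the conditions.

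The cyclins and the 4 core CDKs differed little between conditions. None of the 12 tested was called at 25 nM RA by the likelihood ratio test, 1 (Ccnd1) had an unadjusted p under 0.05, and edgeR's quasi-likelihood test and DESeq2 called none. Every 95% interval at this dose lay between -0.21 and 0.21 on the log2 scale. Ccnd1, the D cyclin induced by growth factor and WNT signals, was at 66.9 and 64.3 RPKM in DMSO, 72.3 and 70.7 under 25 nM RA and 72.8 and 73.0 under 1 µM RA. All RA samples lay above DMSO, with log2 differences of 0.12 ± 0.05 at 25 nM (adjusted p = 0.13) and 0.14 ± 0.05 at 1 µM RA (adjusted p = 0.021). The call at 1 µM RA was lost without DMSO replicate 2 (0.12 to 0.17 over 6 omissions of a sample). Ccnd3 was at 31.9 and 32.6 RPKM in DMSO, 31.9 and 29.8 under 25 nM RA and 29.0 and 29.5 under 1 µM RA. It fell by 0.15 ± 0.05 at 1 µM RA (adjusted p = 0.037), where both samples were below DMSO, and overlapped with DMSO at 25 nM RA. This call was lost without DMSO replicate 2 or 1 µM RA replicate 1 (-0.17 to -0.12) and in DESeq2. Ccnd2 had log2 differences of 0.08 and -0.02.

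Cyclins of later phases did not pass the likelihood ratio test at either dose. Ccne2 came nearest, at 15.1 and 13.9 RPKM in DMSO, 15.6 and 15.3 under 25 nM RA and 15.95 and 15.98 under 1 µM RA. All RA samples lay above DMSO, and its log2 difference of 0.13 ± 0.06 at 1 µM RA had an adjusted p of 0.11 in the likelihood ratio test and of 0.096 in edgeR's quasi-likelihood test, which called it. Ccne1 was at 63.4 and 61.5 RPKM in DMSO, 66.5 and 61.7 under 25 nM RA and 64.6 and 65.5 under 1 µM RA. Ccna2 was at 104 and 101 RPKM in DMSO, 101 and 101 under 25 nM RA and 106 and 107 under 1 µM RA, and Ccnb1 at 178 and 175, 177 and 169, and 179 and 191 RPKM. Both had 1 µM RA samples above DMSO by less than 0.06 on the log2 scale, with adjusted p of 0.58 and 0.49. Cdk4 was at 337 and 350 RPKM in DMSO, 351 and 346 under 25 nM RA and 355 and 372 under 1 µM RA, a log2 difference of 0.07 at 1 µM RA whose interval ran from -0.02 to 0.17. Cdk1, the mitotic CDK, and Cdk2, the S phase CDK, had log2 differences between -0.04 and 0.01 at both doses, and Cdk6 of -0.06 and -0.08.

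Among the CDKs that act outside the core cycle, Cdk18 rose and Cdk12 fell. Cdk18 belongs to the PCTAIRE kinases, and it was at 2.41 and 2.24 RPKM in DMSO, 2.87 and 2.96 under 25 nM RA and 3.13 and 3.03 under 1 µM RA. All RA samples were above DMSO, with log2 differences of 0.32 ± 0.09 (adjusted p = 0.0085) and 0.39 ± 0.09 (adjusted p = 1.5e-04). The call at 25 nM RA was lost without DMSO replicate 2 or 25 nM RA replicate 2 (0.28 to 0.37 over 6 omissions of a sample) and in DESeq2. Its PCTAIRE relatives Cdk16 and Cdk17 were not called at either dose (log2 differences between -0.11 and -0.06). Cdk12, which phosphorylates RNA polymerase II during elongation, was at 22.3 and 20.6 RPKM in DMSO, 20.9 and 20.9 under 25 nM RA and 19.7 and 19.5 under 1 µM RA. It fell by 0.15 ± 0.05 at 1 µM RA (adjusted p = 0.024), a call lost without DMSO replicate 1 (-0.10).

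The 9 remaining CDKs tested, Cdk5, Cdk7, Cdk8, Cdk9, Cdk10, Cdk13, Cdk14, Cdk19 and Cdk20, were not called at either dose. Cdk8 was at 26.9 and 25.9 RPKM in DMSO, 27.1 and 26.7 under 25 nM RA and 28.1 and 27.0 under 1 µM RA. Summed over the 14 CDKs of this kind, RPKM lay between 140.7 and 143.6 in the 6 samples, a spread of 2.00% and the narrowest of the 11 role groups. None of the 3 Cdc25 phosphatases was called at either dose by any of the 3 tests, and the unadjusted p was under 0.05 for none at the lower and for 1 at the higher dose. Cdc25a was at 27.0 and 26.6 RPKM in DMSO, 27.3 and 26.9 under 25 nM RA and 27.1 and 27.1 under 1 µM RA, a log2 difference of 0.01 at both doses. Cdc25c, the phosphatase of mitotic entry, had the lowest p of the 3, with a log2 difference of 0.13 at 1 µM RA (adjusted p = 0.17).

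The direct comparison of the doses asked which genes responded further to 1 µM RA. It called 3 of 54 cell cycle genes (5.56%), against 3.41% of all genes tested, all lower at 1 µM than at 25 nM RA (2.62% of all genes were lower and 0.792% higher). Cdkn1a differed by -0.27 ± 0.07 on the log2 scale (adjusted p = 0.018), E2f7 by -0.25 ± 0.07 (adjusted p = 0.021) and E2f8 by -0.28 ± 0.08 (adjusted p = 0.023). The quasi-likelihood test called the same number, 3, against 2.22% of all genes. DESeq2 called none of the 54 (1.46% of all genes tested), with 7 at an unadjusted p under 0.05, and leaving out 25 nM RA replicate 2 also left none, with 6. Leaving out 25 nM RA replicate 1 or 1 µM RA replicate 2 left 1. Over the omissions Cdkn1a kept a log2 difference of -0.28 to -0.26, E2f7 of -0.28 to -0.21 and E2f8 of -0.32 to -0.24. The RPKM of the doses did not overlap for 28 genes (51.9%), against 43.6% of all genes tested.

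Reads were also looked at by transcript, since 22 of the 57 genes have several RefSeq transcripts. The division of reads among transcripts of a gene is the authors' estimate and is less certain than the sum. Of 81 transcripts tested, 4 were called at the lower dose (4.94%, with 3.69% of all transcripts) and 16 at the higher dose (19.8%, with 8.30%). None was called between the doses (1.80% of all transcripts), with 5 at an unadjusted p under 0.05. Some transcripts were called in genes whose sum was not. Transcript NM_001291817 of Cdk19, a Mediator kinase paralogous to Cdk8, was at 0.272 and 0.264 RPKM in DMSO, 0.637 and 0.548 under 25 nM RA and 0.517 and 0.482 under 1 µM RA. Its log2 differences were 1.13 ± 0.26 (adjusted p = 9.7e-04) and 0.89 ± 0.26 (adjusted p = 0.015). Its share of the RPKM of Cdk19 was 15.9%, 32.7% and 26.9%. The sum of Cdk19 was 1.72 and 1.66 RPKM in DMSO against 1.84 and 1.88 under 1 µM RA and was not called.

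In E2f6 the coding transcript NM_033270 was at 12.9 and 10.4 RPKM in DMSO, 14.9 and 15.6 under 25 nM RA and 14.7 and 15.2 under 1 µM RA. It rose at both doses (0.38 ± 0.11, adjusted p = 0.026, and 0.35 ± 0.11, adjusted p = 0.033). Its share of the RPKM of the gene went from 51.1% to 65.2% and 61.3%, while the non-coding NR_027677 took the rest. NR_027677 was at 9.69 and 12.7 RPKM in DMSO, below NM_033270 in replicate 1 and above it in replicate 2. NM_027118 of Cdk13, a kinase related to Cdk12, fell by 0.32 ± 0.10 at 1 µM RA (adjusted p = 0.036). NM_001282943 of Ccne2 rose by 0.39 ± 0.15 (adjusted p = 0.090), and NM_011495 of Plk4 (0.17 ± 0.06) and NM_011049 of Cdk16 (-0.15 ± 0.05) were called as well at this dose. The transcripts of Cdkn1a were not called one by one (adjusted p = 0.57 and 0.27 at 1 µM RA), with log2 differences of -0.47 ± 0.34 and -0.40 ± 0.19.

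**Figure D4:**
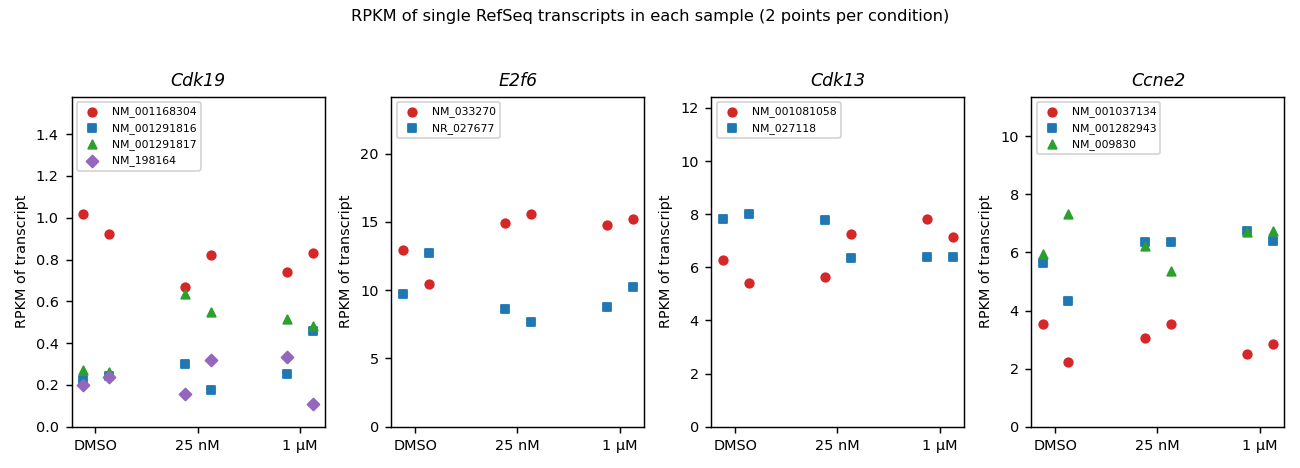
RPKM of single RefSeq transcripts of Cdk19, E2f6, Cdk13 and Ccne2 (1 panel per gene, linear axes from 0) in the 2 samples of DMSO, 25 nM RA and 1 µM RA; symbols are transcripts. NM_001291817 of Cdk19 lies at 0.264 to 0.272 RPKM in DMSO and at 0.482 to 0.637 RPKM with RA. NM_033270 of E2f6 lies above NR_027677 in all 4 RA samples and in DMSO replicate 1, and below it in DMSO replicate 2.

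Positions of the genes bear on the counting. In the GRCm38 annotation (GENCODE M21), exons of 24 of the 54 tested genes overlap exons of another gene. Among them are 8 of the 14 called genes, all on the opposite strand for these 8. The longest such overlaps are 1100 bases of Ccnd1 with LTO1, 610 bases of E2f8 with Gm2788 and 361 bases of Ccnd3 with Bysl, and Plk3 shares 84 bases with Tctex1d4. The library kit marks strand, and whether the counting used strand is not given in the sources used here, so reads of these stretches cannot be told apart. The called genes are spread over the genome. Some share a chromosome but lie megabases apart. Plk3 (117128655 to 117133953) and E2f2 (136172274 to 136196057) are on chromosome 4. Cdkn1a (29090986 to 29100723) and Ccnd3 (47505051 to 47599689) are on chromosome 17. On chromosome 7 are E2f8 (48866429 to 48881042), Plk1 (122159437 to 122169876) and Ccnd1 (144929931 to 144939926).

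RefSeq promoter windows were matched for 45 of the 57 genes and 12 of the 14 called. A gene is counted when any of its windows holds the motif, and 7 of the 45, 3 of them called, have several. A CCAAT box occurs in 25 of the 45 and in 7 of the 12 called genes, against 37.5% of the 27025 genes with a window. The cell cycle homology element occurs in 9 of 45 and in E2f2 and E2f8 among the called genes, against 18.3% of all such genes. An E2F octamer occurs in 6 of 45 and in E2f7 alone among the called, against 2.16%. RA receptor hexamers occur in 15 of 45, and among the called genes in Plk3 and Ccnd3, against 41.8% of all such genes. A TATA box occurs in 1 of 45 and in no called gene, against 14.3% of all such genes. These counts describe letters in 250 bases and no binding. The start sites of the windows can differ from those of the quantified transcripts, so a motif missing from a window may lie near another start. The window of E2f1, at chr2:154569427-154569676, lies inside the quantified gene, which extends to 154569893 on the minus strand.

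Other genes of the same pathways, 92 in 7 lists of which 91 were tested, included 5 called at 25 nM RA (4 higher, 1 lower), 21 at 1 µM RA (14 higher, 7 lower) and 6 between the doses (2 higher, 4 lower), where 8.05%, 19.7% and 3.41% of all genes tested were called. The quasi-likelihood test called 5, 24 and 3 of the 91, and DESeq2 2, 12 and 2. Their median log2 differences were 0.0149 at 25 nM and 0.0422 at 1 µM RA. In the DNA damage and p53 target list 3 of 13 were called at 25 nM RA (2 higher, 1 lower). At 1 µM RA 8 of 13 were called (4 higher, 4 lower). Of the 4 lower, Btg1, Btg2 and Bbc3 had log2 differences of -0.30, -0.17 and -0.20, and Trp53 is given below. Gadd45a, a stress-induced growth arrest gene, was at 6.501 and 6.03 RPKM in DMSO, 12.01 and 12.9 under 25 nM RA and 17.2 and 14.1 under 1 µM RA. The 3 conditions did not overlap, with log2 differences of 0.99 ± 0.10 (adjusted p = 6.5e-21) and 1.31 ± 0.10 (adjusted p = 1.6e-38). Gadd45b rose by 0.32 ± 0.09 and 0.42 ± 0.09 on the log2 scale. Trp53 itself, the activator of Cdkn1a in the damage response, fell by 0.29 ± 0.05 at 1 µM RA (adjusted p = 7.8e-07) from 52.6 and 50.9 to 41.5 and 43.9 RPKM.

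Among pocket proteins, E2F partners and cell cycle transcription factors, 2 of 11 were called at 1 µM RA. Of all genes tested, 19.7% were called at this dose and 8.54% rose. Foxm1, which drives mitotic genes, fell by 0.30 ± 0.06 (adjusted p = 1.3e-06) from 11.9 and 11.7 to 9.83 and 9.44 RPKM, and Lin9, a subunit of the complex that binds mitotic promoters, rose by 0.32 ± 0.06 (adjusted p = 3.0e-07). Mybl2 had log2 differences of 0.11 and 0.05 and was not called. In the mitotic spindle list 2 of 13 rose at 1 µM RA: the centrosome kinase Nek2 (0.23 ± 0.05), which rose at 25 nM RA too (0.17 ± 0.05), and Top2a (0.18 ± 0.05). Espl1 had a log2 difference of -0.12 and was not called.

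The replication list had 2 of 14 called at 1 µM RA, both higher: Gmnn, the licensing inhibitor geminin (0.16 ± 0.05), and Cdc6 (0.13 ± 0.05). The counts of this paragraph stand beside 19.7% of all genes tested called at this dose. Pcna, at 351 and 343 RPKM in DMSO, had a log2 difference of 0.12 (adjusted p = 0.13). Of 18 spindle checkpoint and anaphase-promoting complex genes only the checkpoint kinase Ttk was called at 1 µM RA (0.13 ± 0.05, adjusted p = 0.050). Among 9 CDK-modifying kinases, Cks subunits and ubiquitin ligase parts, Pkmyt1, which puts the inhibitory phosphate on Cdk1, fell by 0.27 ± 0.09, and Skp1a (0.18 ± 0.06), Cul1 (0.14 ± 0.05) and Mnat1 (0.15) rose. Of 14 further cyclins Ccno rose at both doses (0.29 ± 0.08 and 0.23 ± 0.08), and Ccnk, the partner of Cdk12, fell at 1 µM RA (-0.24 ± 0.09, adjusted p = 0.049).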

How the data were processed

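RNA-seq of 6 samples of ESC-derived NMPs, 2 each with DMSO, 25 nM RA and 1 µM RA for 2 h, was analysed, with groups taken from the sample labels. The authors prepared stranded, ribosomal RNA-depleted libraries and, per the labels and methods, aligned reads to mm10 (TopHat2 2.0.13, Bowtie2 2.2.5.0) and quantified RefSeq transcripts in Partek 6.6. The estimated counts deposited by the authors are not normalized. In each sample 50.4% to 51.1% of the 30352 transcripts have a fractional count. RPKM values were computed by the authors from transcript length and reads of the sample, and imply totals of 38466126 to 51499056 reads. The annotation release and the use of strand in counting are not given in the sources used here.

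Values were summed per gene symbol. The sums, rounded to whole counts, were fitted in edgeR 4.0.16 (R 4.3.3) with TMM factors of 0.989 to 1.008 and the filterByExpr filter, 1 coefficient per condition for all 6 samples, and the likelihood ratio test that the methods name. Benjamini-Hochberg adjustment covered 15143 genes. The biological coefficient of variation was 0.0351. RPKM was used for levels only. Intervals cover 95% as 1.96 standard errors. Alternatives were the quasi-likelihood test, DESeq2 1.42.0, its size factors, totals without TMM, other filters, only the 4 samples compared, a replicate block, an adjusted p under 0.05, the study's list thresholds, transcripts fitted separately and leaving out each sample. Promoters are from RefSeq (GRCm38.p6), and Python 3.11.15 with pandas 2.3.3 and matplotlib 3.10.9 made the tables and plots.

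Genes and lists were chosen with earlier results of these data known. Values in every sample are given for each gene called in any comparison and for the highest gene in DMSO of each role group, and at most 3 genes of each pathway list are named, those with the smallest p, with a few further called genes named after their values were seen.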

Additional observations from a re-analysis of the deposited data

Results flagged for a closer look

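The effects of RA on 3 cell cycle genes differed between the doses in the direct test, a contrast within the same edgeR fit. Cdkn1a, the gene of the CDK inhibitor p21, was lower with 1 µM RA than with 25 nM RA by a log2 difference of -0.2678 (adjusted p = 0.018). For the atypical repressor E2f7 the difference was -0.2477 (adjusted p = 0.021), and for its relative E2f8 it was -0.2770 (adjusted p = 0.023). In each of the 3 genes both 1 µM RA samples were below both 25 nM RA samples. DESeq2 called none of them in this comparison.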

How the results depend on the processing

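The direction of every called difference was kept under the 17 alternatives recomputed for each gene. The calls of Plk3 and Plk2 at both doses and of Cdk18, E2f7 and E2f8 at 1 µM RA were kept under all 17, and that of Cdkn1a at 1 µM RA under all but the fit of separate transcripts. The calls of E2f7 (lost in 8) and E2f2 (lost in 7) at 25 nM RA were the least stable. Next were those of E2f1 and Cdkn1b at 1 µM RA and of E2f7 between the doses (lost in 5 each).

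The count of cell cycle genes called, whichever they were, was 6 at 25 nM RA, 3 in DESeq2, 0 with the thresholds of the study's lists and 3 to 8 on leaving out a sample. At 1 µM RA it was 13, 0 with the list thresholds and 8 (without DMSO replicate 2) to 16 on leaving out a sample. Between the doses it was 3. There DESeq2, the list thresholds and the fit of separate transcripts each gave 0, and leaving out a sample gave 0 to 3. Over all genes, 1219 calls at 25 nM RA became 548 in DESeq2, 72 with the list thresholds, 744 by transcript and 799 to 1345 without a sample. The 2983 at 1 µM RA became 1549, 107 and 1639 in the same order, and 1922 to 2838 without a sample. The 516 between the doses became 336 in the quasi-likelihood test, 154 in DESeq2, 340 at an adjusted p under 0.05, 5 with the list thresholds and 205 to 577 without a sample. The causes were not tested.

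With the replicate number as a block, 5, 13 and 3 cell cycle genes and 1138, 2756 and 423 of all genes were called in the 3 comparisons, E2f7 at 25 nM RA being the call lost. The numbers do not pair the samples: the deviations of same-numbered samples from their group means correlated at -0.0409, 0.0484 and -0.0615. Ccnd1 was also called at 25 nM RA in 3 alternatives, Cdkn1a at 25 nM RA without DMSO replicate 1 and E2f2 at 1 µM RA without 1 µM RA replicate 2. Where a sample is left out, the lone dish of that condition is assumed to vary like the others. With 2 dishes per condition, small differences in genes below 1 RPKM were not detectable.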
